A study of Mus musculus with 2 samples.

Results

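The 8 genes described here are the CXC chemokine ligands Cxcl1, Cxcl2, Cxcl5, Cxcl9, Cxcl10, Cxcl12, Cxcl13 and Cxcl14, taken by symbol from the 18920 genes of the expression tables, and all 8 were present in both libraries. They come from 2 single-cell RNA libraries, made from root and ascending segments of the aortas of Fbn1C1041G/+ mice aged 16 weeks, a model of Marfan syndrome that carries a mutant fibrillin-1 allele. Mice of one library were given GLPG0187, an inhibitor of integrins that contain the alpha-v subunit, each day from 6 to 16 weeks of age, and mice of the other were given vehicle on the same schedule. Both groups carry the mutant allele, so no wild-type level is at hand. Each library pools aortas of male and female mice, how many animals were pooled is not stated in the labels, and each group holds 1 library. Cells are not replicates, so no difference between the libraries was tested, no p-value is given, and every difference is reported by size only.

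CXC chemokines are small secreted proteins that direct the movement of leukocytes through receptors on the cells they attract. Cxcl1, Cxcl2 and Cxcl5 act through Cxcr2, mainly on neutrophils, and are known targets of NF-kappa-B signalling. Cxcl9 and Cxcl10 are induced by interferons and act through Cxcr3 on T cells and natural killer cells. Cxcl12 is made by stromal cells in many tissues, acts through Cxcr4, and is also taken up by Ackr3. Cxcl13 draws B cells through Cxcr5, and Cxcl14 is made by epithelial and stromal cells, with a receptor that is less well defined.

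The analysis used 4351 GLPG0187 cells and 2947 vehicle cells after removal of 46 and 14 cells called as doublets. The deposited values are whole numbers on a depth-corrected scale, so they are given as values per cell and not as transcript counts. Totals per cell had a median of 14942 with GLPG0187 and 14806 with vehicle, and the median number of genes detected was 3773 and 3788. Clusters were named from marker genes, and chemokine genes were left out of the genes that shaped them. The GLPG0187 and vehicle libraries held 1689 and 866 cells like smooth muscle cells (SMC-like), 1040 and 846 fibroblast-like cells, 346 and 183 macrophage-like cells, and 161 and 105 endothelial-like cells. Clusters 1 and 6 did not pass the naming rules and are called by number. Cluster 1, with 906 and 713 cells, was led by Cyp2e1, Prss35, Ociad2 and Tbx20 and had 8 of 12 fibroblast markers. Cluster 6, with 176 and 192 cells, was led by Chil1, Chad, Spp1 and Comp. It had 9 of 12 fibroblast markers and 5 of 9 cartilage or valve markers. Its leading genes held more cartilage or valve markers than fibroblast markers, so it was left unnamed. There were 19 and 35 Schwann-like cells and 14 and 7 dendritic-like cells, too few to be ranked beside the others. Only 5 barcode sequences were shared by the libraries.

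Of the 8 genes, 6 lie on mouse chromosome 5 (GRCm38, protein-coding genes of GENCODE). Cxcl5 at 90759360 to 90761624, Cxcl1 at 90891241 to 90893115 and Cxcl2 at 90903871 to 90905938 lie close together on the plus strand. Cxcl9 at 92321347 to 92328079 and Cxcl10 at 92346638 to 92348889 are neighbours on the minus strand, and Cxcl13 lies at 95956951 to 95961068 on the plus strand. Cxcl12 lies on chromosome 6 at 117168535 to 117181367, plus strand, and Cxcl14 on chromosome 13 at 56288643 to 56296551, minus strand.

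The 250 bases before the start of Cxcl1, Cxcl2 and Cxcl10 are shown. Among the 8 genes, these were the main ligands of macrophage-like cells and, as described below, were higher in GLPG0187 fibroblast-like cells. The sequences are from RefSeq (GRCm38.p6), read 5′ to 3′ on the strand of the gene, with chr5:90890995-90891244 for Cxcl1, chr5:90903649-90903898 for Cxcl2 and chr5:92348890-92349139, minus strand, for Cxcl10. Capitals mark matches, on either strand, to the NF-kappa-B motif, searched as GGG, any 3 bases and TTCC, or to the interferon-stimulated response element, searched as GAAA, any 2 bases and GAAA.
Cxcl1: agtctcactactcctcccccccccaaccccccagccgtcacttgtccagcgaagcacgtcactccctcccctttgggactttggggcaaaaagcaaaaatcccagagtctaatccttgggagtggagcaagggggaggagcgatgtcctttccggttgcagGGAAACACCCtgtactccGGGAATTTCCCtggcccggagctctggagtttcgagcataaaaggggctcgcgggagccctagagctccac
Cxcl2: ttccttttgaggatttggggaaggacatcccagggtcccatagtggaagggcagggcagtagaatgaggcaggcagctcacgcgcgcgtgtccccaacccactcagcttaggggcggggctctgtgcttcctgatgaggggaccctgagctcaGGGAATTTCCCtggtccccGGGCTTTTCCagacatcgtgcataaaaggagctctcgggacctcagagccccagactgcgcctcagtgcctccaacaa
Cxcl10: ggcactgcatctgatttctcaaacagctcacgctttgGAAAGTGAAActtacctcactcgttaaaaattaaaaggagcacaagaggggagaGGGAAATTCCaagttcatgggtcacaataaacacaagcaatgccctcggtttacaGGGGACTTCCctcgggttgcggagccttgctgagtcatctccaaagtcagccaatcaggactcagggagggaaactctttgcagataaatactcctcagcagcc
The NF-kappa-B letters occurred in 4.65% of 32851 RefSeq promoter windows of this length. They matched 3 times in Cxcl1, starting 89, 71 and 70 bases before the start, and 3 times in Cxcl2, at 97, 96 and 78 bases. The matches at 71 and 70 bases in Cxcl1, and at 97 and 96 bases in Cxcl2, overlap, because the sequence reads as the motif on both strands. Cxcl10 had 2 matches, at 159 and 104 bases, and 1 match to the interferon letters at 213 bases; the latter letters occurred in 2.98% of windows. Among the 7 of 8 members with a RefSeq window, Cxcl9, Cxcl12, Cxcl13 and Cxcl14 held no NF-kappa-B match, and Cxcl14 held 1 interferon match, at 172 bases. A match describes letters only and was not tied to binding of a factor.

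**Figure D1:**
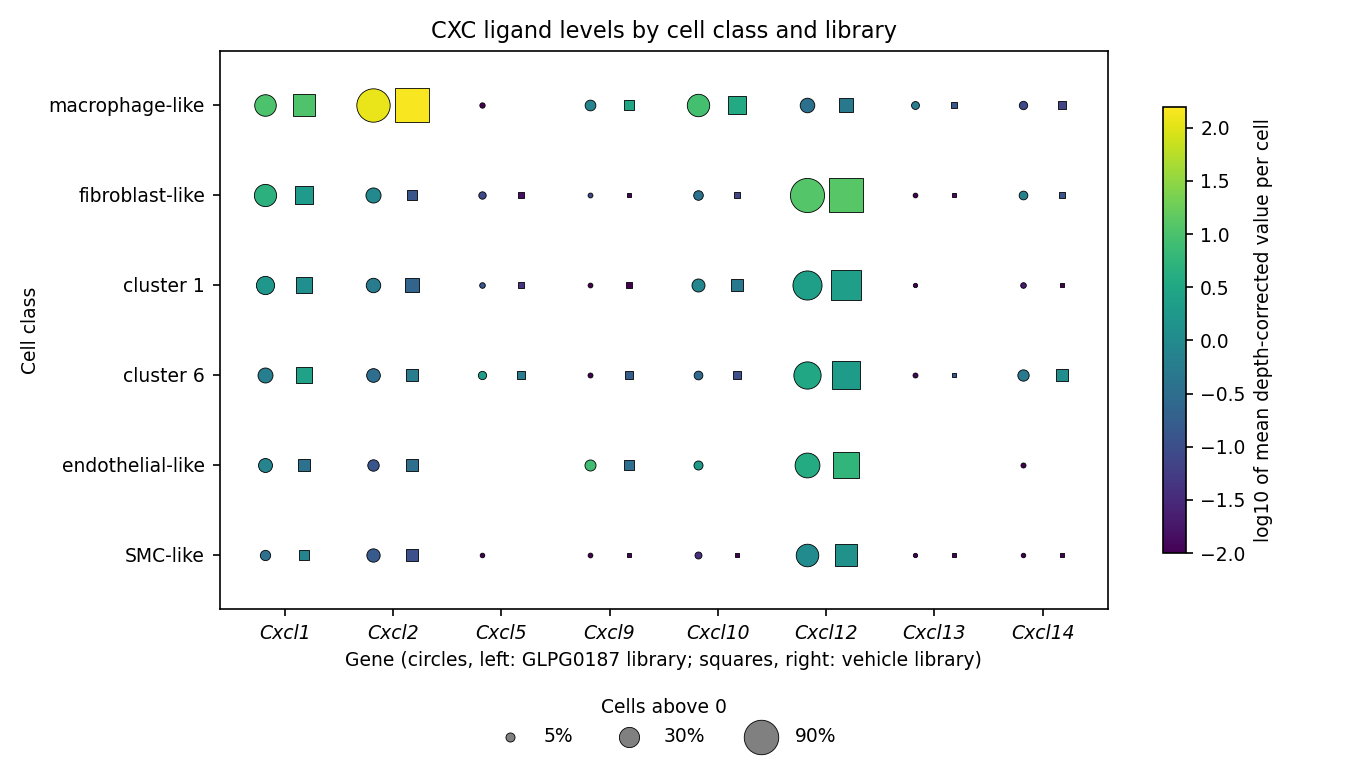
Mean value per cell (colour, log10 scale) and percentage of cells above 0 (symbol size) for the 8 CXC ligands in each cell class; circles are the GLPG0187 library and squares the vehicle library. Cxcl2 and Cxcl1 peak in macrophage-like cells and Cxcl12 in fibroblast-like cells in both libraries, whereas Cxcl5, Cxcl9, Cxcl13 and Cxcl14 were above 0 in few cells of any class.

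Cxcl2, a neutrophil attractant, was the most abundant ligand and belonged almost wholly to macrophage-like cells. Its mean there was 116 with GLPG0187 and 147 with vehicle. It was above 0 in 291 of 346 GLPG0187 cells (84.1%, 95% exact interval 79.8 to 87.8) and in 165 of 183 vehicle cells (90.2%, 84.9 to 94.1). All such intervals are Clopper-Pearson intervals that cover counting error only. Macrophage-like cells held 95.4% of all Cxcl2 with GLPG0187 and 98.1% with vehicle. The log2 ratio of GLPG0187 over vehicle was -0.33, short of the 1.5-fold size (0.58 on the log2 scale) used here to call a difference. In finer clusters, Cxcl2 was highest in macrophage-like cells led by Pf4, Ccl3 and Folr2, with means of 157 and 170, and lower in myeloid cells led by Ly6c2, Ms4a4c, Plac8 and Ccr2, with means of 31.5 and 26.8. The second of these clusters had 129 GLPG0187 and 38 vehicle cells and carried all 10 macrophage markers together with monocyte markers.

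Low Cxcl2 values were spread over every class, which bears on how small shares are read. In SMC-like cells Cxcl2 was above 0 in 12.3% of GLPG0187 cells and 8.43% of vehicle cells, yet a value of at least 2 was seen in only 1.48% and 0.693%. Across all cells above 0 for Cxcl2, 52.6% and 51.2% had a value of 1. SMC-like cells had more genes detected than macrophage-like cells, with medians of 4023 and 4128.5 against 3178 and 3052.

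Fibroblast-like cells had more Cxcl2 in the GLPG0187 library, although at a level far under that of macrophage-like cells. The mean was 0.935 with GLPG0187 and 0.132 with vehicle, a log2 ratio of 2.81. The share above 0 was 16.2% (13.97 to 18.5) against 7.80% (6.08 to 9.82), and that with a value of at least 2 was 5.10% against 1.65%. Values capped at the 99th percentile gave a log2 ratio of 1.71, so few high cells carried part of the difference. The vehicle share above 0 lies at or under the 8.43% of SMC-like cells and by that measure cannot be told from background. In the GLPG0187 library the SMC-like share was higher too, at 12.3% (10.8 to 13.98), and its interval just meets that of fibroblast-like cells. By a value of at least 2, the GLPG0187 shares were 5.10% in fibroblast-like and 1.48% in SMC-like cells. The vehicle shares were 1.65% and 0.693%, from 14 and 6 cells. Cluster 1 also had a higher mean, 0.545 against 0.224, but its shares were 14.8% and 12.6%, and the log2 ratio of 1.27 was 0.32 with capped values.

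Cxcl1, a neutrophil attractant that shares its receptor with Cxcl2, came from macrophage-like and fibroblast-like cells alike. In macrophage-like cells its means were 10.4 and 10.5, with 34.4% (29.4 to 39.7) and 36.6% (29.6 to 44.0) of cells above 0, and the log2 ratio was -0.01. In fibroblast-like cells the mean was 4.77 with GLPG0187 and 1.92 with vehicle, a 2.49-fold difference and a log2 ratio of 1.31. There 36.6% of GLPG0187 cells (33.7 to 39.6) and 21.4% of vehicle cells (18.7 to 24.3) were above 0. Fibroblast-like cells held 44.9% of all Cxcl1 with GLPG0187 and 28.6% with vehicle, against 32.6% and 33.8% in macrophage-like cells.

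Among fibroblast-like cells, Cxcl1 was uneven. In a finer cluster led by Gfpt2, Scara5 and Pi16, the last a marker of adventitial fibroblasts, the means were 10.4 and 4.01, with 56.6% (50.8 to 62.2) and 33.9% (27.7 to 40.6) of cells above 0. A cluster led by Il6 and Adamts4 had means of 4.27 and 2.19, with 42.2% and 29.4% of cells above 0. A cluster led by Hhip, F3 and Inmt had means of only 0.604 and 0.427. The order of the 3 clusters was the same in both libraries. The Pi16 cluster also held the higher Cxcl2, with means of 2.38 and 0.257.

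The Cxcl1 difference in fibroblast-like cells was not alike in cells of the 2 sexes within each pool. Cells with Xist and no Y-linked transcript had means of 1.98 and 1.64, a log2 ratio of 0.28. Cells with a Y-linked transcript and no Xist had means of 6.89 and 2.29, a log2 ratio of 1.59, and 43.8% (39.6 to 48.1) against 24.0% (20.1 to 28.3) of cells above 0. In the Pi16 cluster the means were 3.88 and 4.38 in Xist-only cells and 14.8 and 3.82 in Y-only cells. Each sex set still comes from 1 pool per group, and the difference between the sets was not tested.

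**Figure D2:**
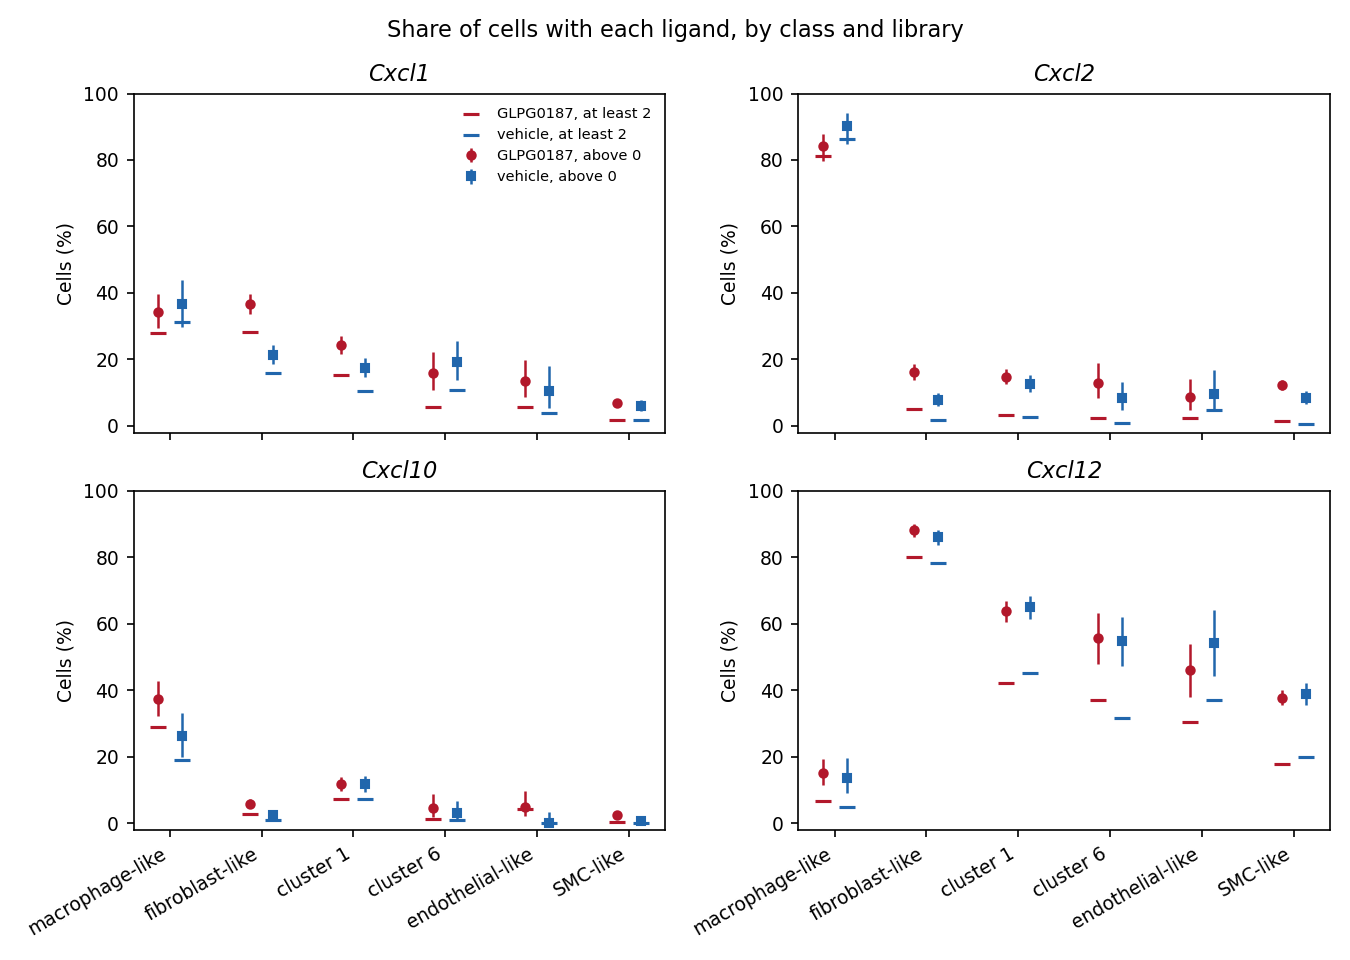
Percentage of cells above 0 for Cxcl1, Cxcl2, Cxcl10 and Cxcl12 in each class and library, with 95% exact intervals (counting error only); horizontal dashes mark the percentage with a value of at least 2. In fibroblast-like cells the Cxcl1 share is 36.6% with GLPG0187 and 21.4% with vehicle, while the Cxcl12 shares are 88.2% and 86.1%.

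In the remaining classes Cxcl1 was lower or rested on few cells, except in cluster 6 with vehicle. Cluster 1 had means of 1.75 and 1.18, with 24.3% and 17.4% of cells above 0 and a log2 ratio of 0.57. In SMC-like cells the means were 0.352 and 0.775, but the shares were 6.87% and 6.12%, and the log2 ratio of -1.14 was -0.05 with capped values. In cluster 6 the means were 0.597 and 2.64, with 15.9% and 19.3% of cells above 0, a log2 ratio of -2.14. The vehicle mean there came from 37 of 192 cells and was above the 1.92 of vehicle fibroblast-like cells. Endothelial-like cells had means of 0.783 and 0.362, with 13.7% and 10.5% of cells above 0. The 19 and 35 Schwann-like cells, too few to be ranked, had means of 4.32 and 2.29, from 7 and 5 cells.

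Cxcl5, the third Cxcr2 ligand, was seen in few cells. It was above 0 in 55 GLPG0187 cells and 21 vehicle cells, and 2 and 3 cells held at least 50% of its sum. Cluster 6 held 63.0% of the sum with GLPG0187 and 72.0% with vehicle, from 7 of 176 and 9 of 192 cells. Its means there were 2.04 and 0.562, a log2 ratio of 1.85, but 1 GLPG0187 cell had a value of 227, and without the highest cell of each library the ratio was 1.05. Among the finer clusters, Cxcl5 was highest in 41 GLPG0187 and 28 vehicle cells, 66.7% of them from cluster 6, led by Hp, Saa3, Cxcl5 and Lcn2; Hp and Saa3 encode acute-phase proteins. There Cxcl5 had means of 10.8 and 3.86, with 26.8% and 32.1% of cells above 0. Cxcl5 was at 0 in all 161 and 105 endothelial-like cells, which allows shares of up to 1.86% and 2.86% by the rule of 3 cells out of the total, used here wherever a count is 0.

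Cxcl10, an interferon-induced ligand of Cxcr3, was highest in macrophage-like cells among the ranked classes. Its mean was 8.87 with GLPG0187 and 3.48 with vehicle, with 37.3% (32.2 to 42.6) and 26.2% (20.02 to 33.2) of cells above 0, and the log2 ratio was 1.35. The GLPG0187 value was the higher in the myeloid cluster led by Ly6c2 and Plac8, where the means were 18.9 and 2.47, with 63 of 129 GLPG0187 cells (48.8%, 39.9 to 57.8) and 6 of 38 vehicle cells (15.8%, 6.02 to 31.3) above 0. In the larger macrophage cluster led by Pf4 the order was the other way, with means of 2.71 and 4.06, shares of 28.6% and 29.6%, and a log2 ratio of -0.58. The Ly6c2 cluster held 129 GLPG0187 and 38 vehicle cells and the Pf4 cluster 231 and 152, so the 2 clusters were also mixed in different proportions. No dendritic-like cluster was set apart at this resolution, and 87.4% of the Ly6c2 cluster was macrophage-like in the main clustering. In that clustering, dendritic-like cells had Cxcl10 above 0 in 0 of 14 GLPG0187 and 3 of 7 vehicle cells. The vehicle mean there was 10.7, with a value of 73 in 1 cell out of a sum of 75. Their part in the Ly6c2 values was not tested. In macrophage-like cells the direction further differed between the sex sets. Means were 1.48 and 4.79 in 46 and 38 Xist-only cells and 10.2 and 3.29 in 241 and 119 Y-only cells.

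In the other ranked classes, Cxcl10 was lower than in macrophage-like cells. The 19 and 35 Schwann-like cells, too few to be ranked, had means of 6.0 and 2.66, from 3 and 4 cells. Cluster 1 had means of 0.861 and 0.508, with almost equal shares of 11.7% and 11.6%. Fibroblast-like cells had means of 0.369 and 0.0768, with 5.77% (4.43 to 7.36) and 2.36% (1.45 to 3.63) of cells above 0 and a log2 ratio of 2.25. SMC-like cells, the class lowest by the average of the libraries, had shares of 2.43% and 0.577%, so the share was higher in GLPG0187 cells there too. Endothelial-like cells had a mean of 1.78 in the GLPG0187 library, from 8 of 161 cells, and Cxcl10 was at 0 in the 105 vehicle cells, which allows a share of up to 2.86%.

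Cxcl9, the other Cxcr3 ligand, rested on so few cells that its means are little more than the record of the highest. It was above 0 in 60 GLPG0187 and 35 vehicle cells, and 2 cells held at least 50% of the sum in each library. In endothelial-like cells the means were 8.02 and 0.314, a log2 ratio of 4.63, while the shares were 8.07% (4.37 to 13.4) and 5.71% (2.13 to 12.02); the highest GLPG0187 cell had a value of 539. At the finer resolution, the endothelial cluster led by Gpihbp1 and C1qtnf9 had 9 of 22 and 6 of 24 cells above 0, with means of 29.5 and 1.38, and lymphatic endothelial-like cells had 0 of 86 and 0 of 55, which allows shares of up to 3.49% and 5.45%. In macrophage-like cells the means were 0.795 and 3.10, with 7.51% and 6.01% of cells above 0, and the log2 ratio of -1.96 was 0.024 with capped values. The 14 and 7 dendritic-like cells had means of 4.71 and 54.4, from 4 and 2 cells.

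Cxcl12, the stromal ligand of Cxcr4, was the most widely detected of the 8 genes, and its main source was the same in both libraries. Fibroblast-like cells had means of 12.1 and 12.4, with 88.2% (86.1 to 90.1) and 86.1% (83.5 to 88.3) of cells above 0, and a log2 ratio of -0.03. They held 71.5% and 73.4% of all Cxcl12. The finer clusters led by Hhip (means 14.3 and 14.5) and by Il6 (13.9 and 14.1) were higher than the Pi16 cluster (7.45 and 5.87), which is the reverse of their order for Cxcl1. Endothelial-like cells came next, with means of 3.65 and 5.51, shares of 46.0% and 54.3%, and a log2 ratio of -0.59. The endothelial cluster led by Gpihbp1 was the highest, where means were 18.8 and 21.3 and 20 of 22 and 24 of 24 cells were above 0, whereas lymphatic endothelial-like cells had means of 0.674 and 0.782. The Gpihbp1 cluster made up 22 of 161 GLPG0187 and 24 of 105 vehicle endothelial-like cells, so the finer clusters were mixed in different proportions. The part of that mix in the Cxcl12 ratio was not tested.

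The other classes followed in the order cluster 6 (means 3.12 and 2.04), cluster 1 (2.24 and 2.202), SMC-like cells (1.01 and 1.27) and macrophage-like cells (0.338 and 0.508). From endothelial-like cells to cluster 6, and from cluster 6 to cluster 1, the share intervals overlap in both libraries. With GLPG0187 the interval of endothelial-like cells (38.1 to 54.0) also overlaps that of SMC-like cells (35.5 to 40.1). Among SMC-like cells, a finer cluster led by Tnnt2 and Pln had means of 2.22 and 3.77, and one led by Igfbp2 and Susd5 had means of 0.303 and 0.382.

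**Figure D3:**
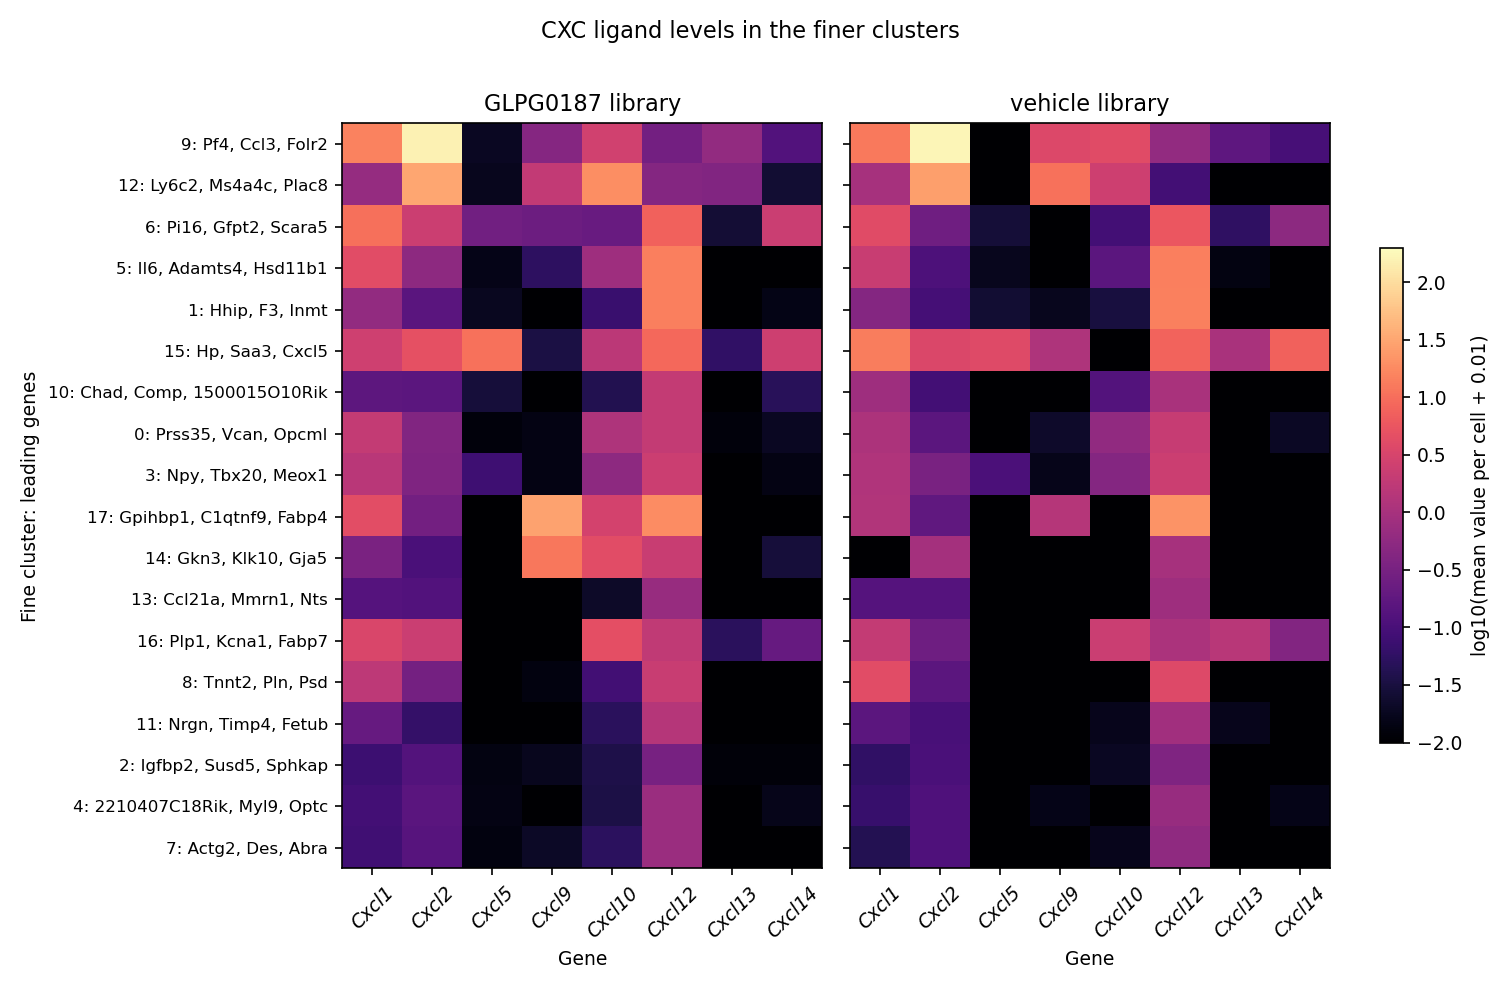
Mean value per cell of the 8 CXC ligands in the finer clusters, named by leading genes, for the GLPG0187 and vehicle libraries (colour, log10 scale). Cxcl1 is highest outside myeloid cells in the Pi16 fibroblast cluster and in the small cluster led by Hp and Saa3, and Cxcl10 in the Ly6c2 cluster has means of 18.9 and 2.47.

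Cxcl14 was above 0 in 93 GLPG0187 and 44 vehicle cells, and the 10 highest cells held 52.8% and 73.2% of its sum. In the main clustering its main source differed between the libraries. Fibroblast-like cells held 82.2% of its sum with GLPG0187 and 31.6% with vehicle, and cluster 6 held 10.8% and 58.7%. In fibroblast-like cells the means were 0.670 and 0.134, with 4.52% (3.34 to 5.96) and 1.06% (0.488 to 2.01) of cells above 0 and a log2 ratio of 2.32. In the Pi16 cluster 45 of 304 GLPG0187 cells and 9 of 218 vehicle cells were above 0. In cluster 6 the means were 0.523 and 1.09, with 8.52% and 10.9% of cells above 0, a log2 ratio of -1.06. By share above 0, cluster 6 was thus above fibroblast-like cells in both libraries. The small cluster led by Hp and Saa3 had 14 of 41 and 21 of 28 cells above 0, with means of 2.44 and 7.50. At resolution 1.0 this cluster and the Pi16 cluster were both named fibroblast-like, so the difference in main source depends on the clustering.

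Cxcl13, the B cell attractant, was the rarest, with 20 GLPG0187 and 9 vehicle cells above 0. Macrophage-like cells had means of 0.549 and 0.137, from 12 and 4 cells, a log2 ratio of 1.96 that was 0.78 with capped values. In the vehicle library 47.6% of the sum came from 1 Schwann-like cell with a value of 60. Markers of B cells, 3 of which were in the tables, summed to means of 0.107 and 0.0656 in macrophage-like cells.

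Set beside all genes, in fibroblast-like cells 4 of 5 members with a summed value of at least 100 were at least 1.5-fold higher in the GLPG0187 library (Cxcl1, Cxcl2, Cxcl10 and Cxcl14) and none lower. Of 10183 genes measured there, 2.67% were that much higher. The median log2 ratio of the 5 members was 2.25, and that of all genes was -0.03. In macrophage-like cells 2 of 6 were higher (Cxcl10 and Cxcl13) and 2 lower (Cxcl9 and Cxcl12), where 6.87% of 6494 genes were higher and 2.82% lower. In cluster 1, 3 of 5 were higher (Cxcl2, Cxcl5 and Cxcl10) and none lower, beside 1.58% and 1.72% of genes, and in cluster 6, 2 of 5 were higher (Cxcl5 and Cxcl12) and 3 lower (Cxcl1, Cxcl2 and Cxcl14) beside 2.41% and 1.56%. The Cxcl2 value in cluster 6 rests on 1 vehicle cell with a value of 81 out of a sum of 110; its shares were 13.1% with GLPG0187 and 8.33% with vehicle, and capped values gave a log2 ratio of 0.68. In endothelial-like cells 3 of 4 were higher (Cxcl1, Cxcl9 and Cxcl10) and Cxcl12 was lower, beside 5.18% and 3.57%, and in SMC-like cells none of 3 was higher and Cxcl1 was lower, beside 0.547% and 3.03%. The endothelial-like Cxcl12 log2 ratio, at -0.59, was just past the 1.5-fold size and, as given above, came from differently mixed finer clusters. Either way, 3.58% of genes were 1.5-fold apart in SMC-like cells, 3.29% in cluster 1, 3.98% in cluster 6, 8.75% in endothelial-like cells, 3.78% in fibroblast-like cells and 9.69% in macrophage-like cells. Members held by few cells pass such a size easily, so these counts describe the 2 libraries and no more.

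**Figure D4:**
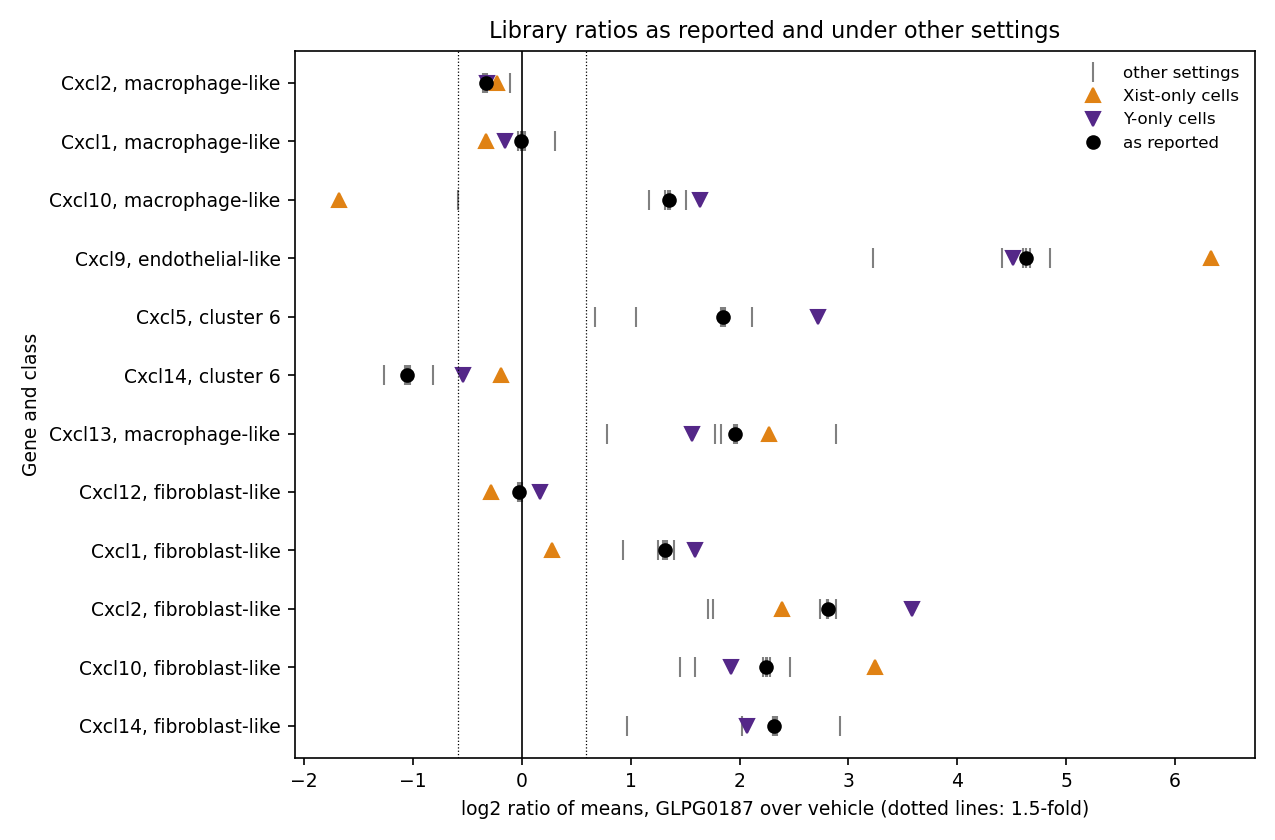
Log2 ratio of the mean value, GLPG0187 over vehicle, for 12 pairs of ligand and class; black points are the values as reported, grey ticks the other settings and triangles the Xist-only and Y-only cells, with dotted lines at 1.5-fold. Cxcl12 in fibroblast-like cells and Cxcl2 in macrophage-like cells shift by less than 1.5-fold between settings, and the Cxcl10 value in macrophage-like cells changes sign between settings.

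Macrophage transcripts in other cells were measured beside the fibroblast values. The 10 macrophage markers summed to means of 0.728 and 0.526 in fibroblast-like cells, against 378 and 396 in macrophage-like cells, and none of the 10 was at 0. In the Pi16 cluster the sums were 0.592 and 0.495, in the Il6 cluster 0.772 and 0.576. Markers were thus slightly higher in GLPG0187 fibroblast-like cells, and their part in the Cxcl2 difference was not tested. Fibroblast-like cells with Cxcl1 of at least 2 had Cxcl2 of at least 2 in 12.9% of cases with GLPG0187 and 4.44% with vehicle, against 2.01% and 1.13% of the other fibroblast-like cells. By the same value of at least 2 for both genes, in macrophage-like cells 97 of 97 and 56 of 57 cells with Cxcl1 had Cxcl2, against 73.9% and 81.0% of the rest. In cluster 6, 4 of 6 cells with Cxcl5 of at least 2 had Cxcl14 of at least 2 in each library, against 2.35% and 6.45% of the rest.

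Known NF-kappa-B response genes were counted by class, beside the shares of all genes higher or lower given above. The shares of all genes that were higher were 2.67% in fibroblast-like cells and 6.87% in macrophage-like cells. In fibroblast-like cells 6 of 13 measured were higher in the GLPG0187 library (Nfkbiz, Nfkb1, Il6, Ptgs2, Ccl2 and Zc3h12a) and none lower, with a median log2 ratio of 0.51. Il6, an inflammatory cytokine, had means of 3.80 and 1.67 there, and Ptgs2, which encodes cyclooxygenase 2, of 5.32 and 2.27. In macrophage-like cells only Ccl2, a monocyte attractant, was higher among 14 measured, a share near that of all genes. Its means were 49.7 and 23.7, and the median log2 ratio of the 14 was -0.19. In SMC-like cells Tnfaip3 was higher and Icam1 and Ccl2 were lower among 13. In cluster 1, Il6 and Zc3h12a were higher among 13; in cluster 6, Ccl2 was higher and Zc3h12a lower among 9; in endothelial-like cells none was higher and Ccl2 was lower among 7.

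Interferon response genes were higher in several classes; the shares of all genes that were higher are those given above. Of the interferon-gamma list 14 of 15 measured were higher in macrophage-like cells (median log2 ratio 1.68; 6.87% of all genes), 12 of 13 in fibroblast-like cells (1.11), 13 of 13 in endothelial-like cells (1.83) and 9 of 14 in cluster 1 (0.80), but 3 of 11 in SMC-like cells and 3 of 7 in cluster 6. Of the type I interferon list, 12 of 12 were higher in macrophage-like cells (2.05), 9 of 9 in endothelial-like cells (1.91) and 8 of 10 in fibroblast-like cells (1.16), 2 of 10 in cluster 1 and none of 5 in SMC-like cells; in cluster 6, 1 of 4 was higher and Irf7 was lower. In macrophage-like cells 7 T cell markers summed to means of 0.951 with GLPG0187 and 0.153 with vehicle, and 2 natural killer cell markers to 0.162 and 0. Their part in the interferon values was not tested. By mean, Cxcl10 was higher in macrophage-like, fibroblast-like and cluster 1 cells, and in endothelial-like cells was above 0 in the GLPG0187 library alone. As given above, its direction was the other way in the Pf4 macrophage cluster and in Xist-only macrophage-like cells. Its shares in cluster 1 were almost equal.

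The receptors were sparse apart from those of Cxcl12. Cxcr2 was above 0 in at most 1.04% of cells of any class, and 6 neutrophil markers summed to means of 0.552 with GLPG0187 and 0.246 with vehicle in macrophage-like cells. Of these, Retnlg and Ly6g were at 0 in both libraries and S100a9 and Mmp8 also with vehicle, and the most widely detected was above 0 in 24.3% and 19.1% of cells. Cxcr3 was above 0 in 3.18% and 4.37% of macrophage-like cells and in 5 of 14 and 1 of 7 dendritic-like cells. Cxcr4 was found in 57.8% and 62.3% of macrophage-like cells, with means of 1.66 and 2.04, and in 14.9% and 16.4% of cluster 1. Ackr3, the scavenging receptor, had means of 6.35 and 4.66 in endothelial-like cells; its fibroblast-like means were 2.47 and 2.15. None of the measured receptors, and no gene of the CXCL12 list but Ebf1 in endothelial-like cells (lower), was 1.5-fold apart in any of the 6 classes. Of other CXC ligands, Pf4 had means of 27.1 and 34.4 and Cxcl16 of 7.92 and 8.48 in macrophage-like cells, and only Cxcl16 in endothelial-like cells, at 0.783 and 0.352, was 1.5-fold apart. Cxcr1 and Cxcl11 were not analysed here.

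By correlation of log2 mean values over 12 points, the 6 classes in 2 libraries, the genes most like each member were picked from 13271. For Cxcl1 they were Gm26609 (Pearson r 0.945), Nup98 and N4bp2l1, and for Cxcl2 Mbp (0.983), Dennd4b and Rbm47. For Cxcl5 they were Chl1 (0.980), Gm45397 and Lin7a, and for Cxcl9 Pxk (0.964), Prag1 and Glud1. For Cxcl10 they were Oasl2 (0.945), Batf2 and Nans, and for Cxcl12 Enpp3 (0.975), Nid1 and Bsg. Guca1a (0.942), Uhrf1 and Cd80 were most like Cxcl13, and Galk2 (0.920), Rrbp1 and Hs3st3a1 most like Cxcl14. The points share libraries and clustering, and the values are a description.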

How the data were processed

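Cells of 2 pooled samples were profiled with 10x Genomics 3′ version 3 chemistry, per the labels' protocols. Cell Ranger, Seurat and build mm10 are named in the submitters' processing notes, with no versions. Each deposited value is a whole number, and their totals per cell are nearly even, so they were treated as a depth-corrected score and no count model was used. The authors' correction of the score is not given in the sources used, and counts of reads behind it are unknown.

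A minimum of 200 genes and a maximum of 20% mitochondrial signal per cell removed none, and Scrublet calls were removed; its vehicle rate of 0.473% is low, from 2961 cells. Values were clustered in scanpy 1.11.5 (2000 variable genes, 30 components, 20 neighbours, Leiden resolution 0.5; 1.0 for the finer clusters). Clusters were named where at least 3 and at least 75% of a class's markers were in at least 25% of cells and 3-fold over the median cluster, unless another class had more markers among the cluster's 10 leading genes; these naming limits were set after seeing the data. Means, shares and log2 ratios were computed per library with 1 added to each sum, and genes with a summed value of at least 100 were called by a 1.5-fold size. All 8 members are named, with the 3 genes most like each in log2(mean + 0.01), and list genes by size or as ligands or receptors. The members and lists were chosen with earlier results of these data known. Alternatives are in the closing section; leaving out the highest cell of each library was added after seeing the data. The calling step was tested on simulated data.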

Additional observations from a re-analysis of the deposited data

Results flagged for a closer look

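For 3 of the values, cells of the 2 sexes differed in opposite directions between the libraries, by at least 1.5-fold in each set; smaller opposite differences are not listed. Cells with Xist and no Y-linked transcript were set beside cells with a Y-linked transcript and no Xist. The difference between the sets was not tested, since each set comes from 1 pool per group. For Cxcl10 in macrophage-like cells the log2 ratio of GLPG0187 over vehicle was -1.68 in Xist-only cells, over 46 and 38 cells, and 1.63 in Y-only cells, over 241 and 119 cells. For Cxcl12 in cluster 6 it was -1.01 in 29 and 38 Xist-only cells and 0.81 in 124 and 115 Y-only cells. For Cxcl1 in cluster 6 it was 0.97 in the Xist-only set and -2.08 in the Y-only set, but the Xist-only value rests on 2 GLPG0187 cells and 1 vehicle cell, each with a value of 1.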

How the results depend on the processing

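No paired analysis was possible because each group has 1 library. Of 69 alternative log2 ratios of members in their leading class, 59 shifted by less than 1.5-fold, 8 moved by at least that and 2 reversed. A change of sign was counted as reversed only where the reported ratio was at least 1.5-fold. Cxcl10 in macrophage-like cells went from 1.35 to -0.58 at resolution 1.0, where the Ly6c2 cluster is apart, and to -1.68 in Xist-only cells. Cxcl5 in cluster 6 went from 1.85 to 0.67 with capped values, 1.05 without the highest cell of each library and 2.72 in Y-only cells. Cxcl9 in endothelial-like cells went from 4.63 to 3.23 capped and 6.33 in Xist-only cells. Cxcl13 in macrophage-like cells went from 1.96 to 0.78 capped and 2.88 without the highest cells, and Cxcl14 in cluster 6 from -1.06 to -0.20 in Xist-only cells. The cause was not tested.

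Of 168 ratios in other classes, 136 shifted by less than 1.5-fold, 23 moved and 9 reversed. Cxcl2 in cluster 6 (-0.86) turned to 0.89 at resolution 1.0, 0.98 with chemokine genes kept in the clustering, 0.68 capped, 0.97 in the Xist-only set and 0.92 in the Y-only set, so its direction is not settled. Cxcl1 in cluster 6 turned to 0.97 and Cxcl12 in cluster 6 to -1.01 in Xist-only cells, Cxcl12 in macrophage-like cells to 0.31 in Y-only cells, and Cxcl9 in macrophage-like cells to 0.024 capped. No value could be had for Cxcl5 in cluster 6 at resolution 1.0 or in Xist-only cells, Cxcl14 in cluster 6 at resolution 1.0, Cxcl5 in cluster 1 at resolution 1.0 or capped, Cxcl14 in Xist-only fibroblast-like cells, or Cxcl10 in endothelial-like cells, where a library was at 0.

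By a value of at least 2, the GLPG0187 and vehicle shares in macrophage-like cells were 28.9% and 19.1% for Cxcl10, the GLPG0187 share for Cxcl1 was 28.0%, those of Cxcl12 in fibroblast-like cells were 79.9% and 78.3%, and the GLPG0187 share of Cxcl14 in cluster 6 was 4.55%. Thinned to a total of 10000 per cell, which left out 0 cells, the Cxcl10 share in GLPG0187 macrophage-like cells was 31.8%, and the Cxcl12 shares in fibroblast-like cells were 85.3% and 82.9%. In Xist-only cells, the shares were 28.3% and 47.4% for Cxcl1 in macrophage-like cells, 0% and 0% for Cxcl5 and 3.45% and 2.63% for Cxcl14 in cluster 6, and in the GLPG0187 library 16.0% for Cxcl9 in endothelial-like cells and 6.52% for Cxcl13 in macrophage-like cells. By share averaged over the libraries, the leading class was first for all 8 genes; within 1 library, fibroblast-like cells were first for Cxcl1 with GLPG0187 and macrophage-like cells for Cxcl9 with vehicle. By mean at resolution 1.0, cluster 6 ranked 2 for Cxcl5 and 4 for Cxcl14, each behind a class named fibroblast-like, and macrophage-like cells ranked 3 for Cxcl10 and 2 for Cxcl13.

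Genes 1.5-fold apart numbered 386 in SMC-like cells, 340 in cluster 1, 244 in cluster 6, 429 in endothelial-like, 385 in fibroblast-like and 629 in macrophage-like cells. Without a filter they numbered 3921, 4214, 4619, 4966, 4236 and 4962, and with a summed value of at least 500 they numbered 117, 81, 46, 76, 132 and 161. With 1 library per group, no alternative measures the spread between animals.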
